A study of Homo sapiens with 6 samples.

Results

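Long non-coding RNAs were examined in A375, a human melanoma cell line, as 9 genes named for their roles in melanoma or in the nucleus: MALAT1, NEAT1, TUG1, SAMMSON, BANCR, LINC00518, PVT1, CYTOR and MIR22HG. They were found by matching the Ensembl IDs of the count tables to GENCODE 44 symbols, and all 9 were among the 58302 IDs, of which 14262 are typed as lncRNA. TUG1 is typed as protein coding in that release, so 8 of the 9 carry the lncRNA type. RNA was sequenced from 3 libraries of cells stably carrying an empty vector and 3 libraries of cells stably overexpressing HMGB2 (HMGB2OE), a chromatin protein that binds and bends DNA. Both are lentivirally transduced lines of A375. Each library came from its own cell pellet, and the replicates are described as technical in the reporting form, so every p-value below covers the spread between pellets of a line and not that between transductions. RNA was selected with oligo(dT) beads, which capture a poly(A) tail.

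Long non-coding RNAs act as RNA and are mostly not translated, and many stay in the nucleus. MALAT1 gathers in nuclear speckles, the stores of splicing factors, and NEAT1 is the scaffold around which paraspeckles assemble. SAMMSON lies beside the melanocyte regulator MITF and is known as a melanoma survival RNA, BANCR was named for its activation by BRAF, and PVT1 lies beside MYC. Such RNAs need not be captured like messenger RNAs: MALAT1 and the long isoform of NEAT1 end in a folded triple helix in place of a poly(A) tail.

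Between 45925053 and 56755212 reads were assigned to genes per library. HMGB2 itself had normalized counts, that is counts divided by the library's size factor, of 7514 ± 243 (SD over 3 libraries, as for every ± below) with the empty vector, against 15517 ± 1177 with HMGB2OE, a 2.07-fold difference (95% interval 1.80 to 2.37). Of 15 melanoma markers, MITF (1442 ± 54.5 with the empty vector), S100B (3443 ± 93.4) and PRAME (8640 ± 563) were present, while TYR, the melanin-synthesis enzyme, had a single read in 6 libraries. The melanocyte markers MLANA (5.60 ± 0.737 with the empty vector), TYRP1 (13.3 ± 7.13) and DCT (0.295 ± 0.511) were also near the floor. Of the 12 markers tested 0 were called higher and 3 lower: NGFR, a neural crest receptor (2410 ± 536 to 1156 ± 131, log2 fold change -1.06, SE 0.18, DESeq2 adjusted p = 2.98e-07), AXL, a receptor tyrosine kinase (-0.69, SE 0.14, adjusted p = 8.58e-05), and the surface proteoglycan CSPG4 (-0.63, SE 0.21, adjusted p = 0.0446, not called by edgeR, adjusted p = 0.162). The 15 summed to 93510 to 136630 with the empty vector and 75727 to 90616 with HMGB2OE, and their part in the results below was not tested. SOX10 was at 0 in the either-strand column, where reads shared with a gene on the opposite strand are set aside, and had 253416 reads in the sum of the columns that count each strand separately. PMEL had 342 reads in the either-strand column and 10158 in that sum. Among 14 markers of other cell types PTPRC, the pan-leukocyte marker, was at 0 and 0 of 8 tested were called. Their summed normalized count was 2960 to 4915 with the empty vector and 4501 to 5984 with HMGB2OE, most of it COL1A1. KRT14 (536 ± 100 with the empty vector), LYZ (508 ± 17.7) and EPCAM (318 ± 57.3) were also present. KRT5 differed within the empty vector group, at 5.05, 11.5 and 279 in replicates 1, 2 and 3. In HMGB2OE replicates 1, 2 and 3 it was at 250, 200 and 289 (DESeq2 adjusted p = 0.797). HMGB2OE replicate 3 stood apart in its multimapped reads, at 10.6% against 2.58% to 4.89% in the other libraries.

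With HMGB2 overexpression 0 of the 9 RNAs were called by DESeq2 at an adjusted p under 0.05, where 4.94% of the 18836 tested genes were called. At an unadjusted p under 0.05 there were 2, PVT1 and BANCR, where 14.3% of the tested genes passed. edgeR called 0 of the 8 it tested, and 2.81% of all 16754 genes it tested. The median log2 fold change of the 9 was 0.02, against 0.00 over all tested genes. PVT1 was lower and BANCR and MIR22HG higher in every HMGB2OE library than in every empty vector library, so 3 of 9 had groups that did not overlap, where 21.9% of all tested genes did not overlap. In bulk RNA, fewer cells with an RNA and less of it per cell cannot be told apart. The plot of normalized counts by library shows the separation for PVT1, BANCR and MIR22HG and the overlap for the other 6.

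**Figure D1:**
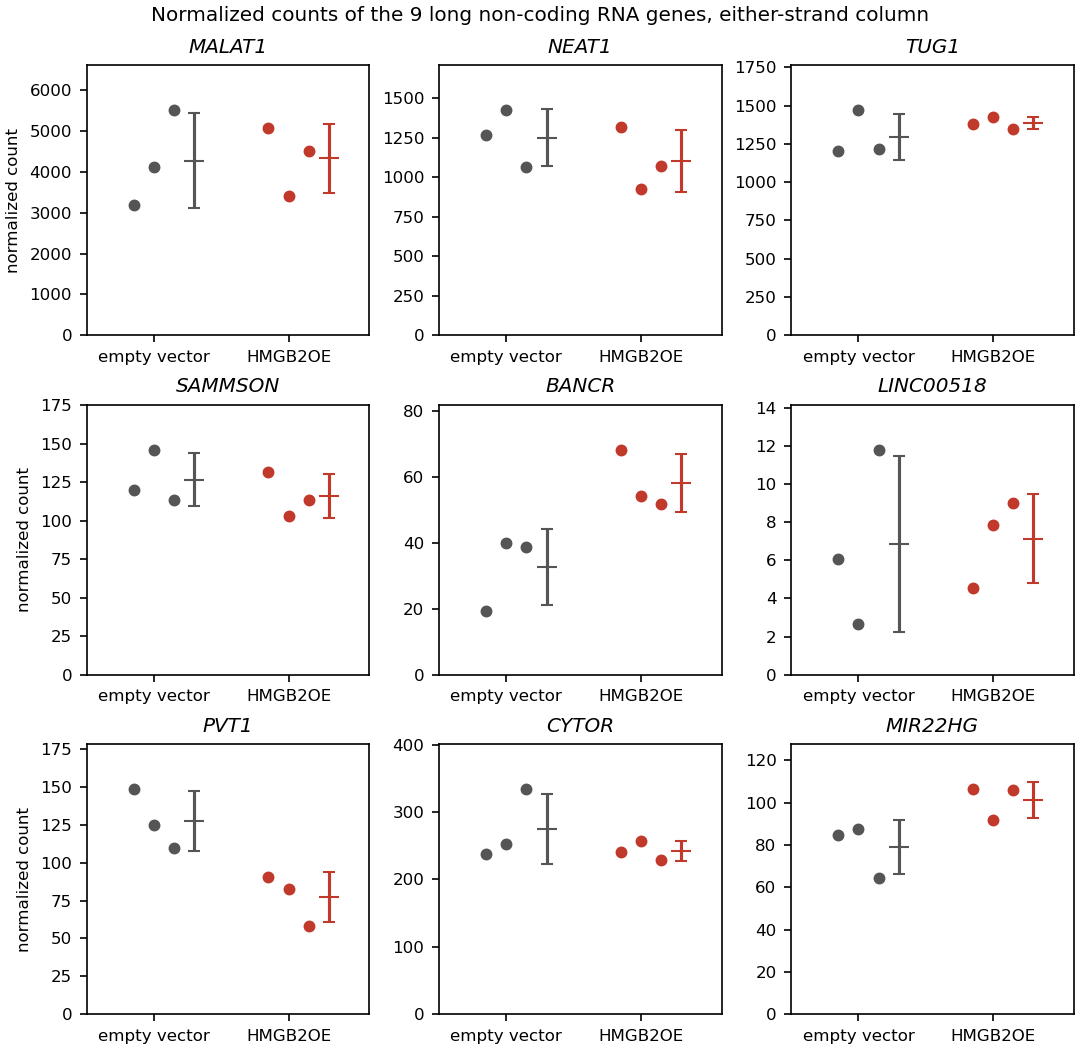
Normalized counts (counts divided by the DESeq2 size factor) of the 9 genes in the either-strand column. Points are libraries in replicate order, and the bar beside them is the mean ± SD of 3 libraries. PVT1 sits at 58.5 to 90.8 with HMGB2OE and 109.5 to 148.5 with the empty vector, while MALAT1 spreads from 3198 to 5511 within the empty vector group.

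The 3 prime ends of MALAT1 and NEAT1 are shown because they lack the usual tail by which these libraries were selected. Both are on hg38, read 5′ to 3′ on the plus strand, and capitals mark runs of at least 10 bases shared by both ends.
MALAT1, chr11:65506017-65506116: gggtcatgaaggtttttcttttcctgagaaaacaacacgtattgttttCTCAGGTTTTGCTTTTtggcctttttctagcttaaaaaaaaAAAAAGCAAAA
NEAT1, chr11:65445441-65445540: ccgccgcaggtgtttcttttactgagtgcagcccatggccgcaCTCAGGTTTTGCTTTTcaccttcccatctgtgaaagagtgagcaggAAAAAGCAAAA
The shared runs were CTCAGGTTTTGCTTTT, of 16 bases, and AAAAAGCAAAA, of 11 bases, and within them TTTTGCTTTT, of 10 bases, is the reverse complement of the last run without its first base. In MALAT1 a small RNA, ENSG00000274072, is annotated from the very next base, 65506117, to 65506173. RNase P is known to cut MALAT1 there and to release a tRNA-like RNA. The annotated MALAT1 transcript runs 1957 bases further. Its most A-rich window of 20 bases held 17 A, with a run of 13 as in the sequence shown, and oligo(dT) is known to anneal to A-rich stretches inside an RNA.

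MALAT1 (ENSG00000251562; chromosome 11, 65497640 to 65508073, plus strand) had the most reads of the 9, 26009 over the 6 libraries. Its normalized counts were 3198, 4116 and 5511 in empty vector replicates 1, 2 and 3. In HMGB2OE replicates 1, 2 and 3 they were 5079, 3405 and 4518. The groups overlapped fully, with the highest and lowest library both carrying the empty vector. The log2 fold change was 0.02 (SE 0.21, 95% interval -0.38 to 0.42, DESeq2 adjusted p = 0.988), which as a ratio runs from 0.766 to 1.34. The coefficient of variation was 27.2% among empty vector and 19.7% among HMGB2OE libraries, where counting alone gives 1.52% at this depth.

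NEAT1 (ENSG00000245532; chromosome 11, 65422774 to 65445540, plus strand) lies upstream of MALAT1. It had normalized counts of 1266, 1424 and 1064 with the empty vector and 1315, 924 and 1069 with HMGB2OE. The groups overlapped, and the difference was -0.18 on the log2 scale (SE 0.17, 95% interval -0.51 to 0.15, DESeq2 adjusted p = 0.737). Gene counts do not separate the short, polyadenylated isoform of NEAT1 from the long one.

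The proteins of the bodies these RNAs mark were compared from lists. Of 20 paraspeckle proteins, 0 were called, and their log2 fold changes lay between -0.21 and 0.20. They include SFPQ and NONO, the core pair that binds NEAT1, at -0.02 (SE 0.14) and -0.09 (SE 0.11). Of 20 nuclear speckle proteins 2 were called higher and 0 lower, both splicing factors of the SR family. SRSF6 rose from 3278 ± 234 to 4261 ± 142 (log2 fold change 0.38, SE 0.10, DESeq2 adjusted p = 0.00778) and SRSF5 from 2384 ± 110 to 3074 ± 154 (0.37, SE 0.10, adjusted p = 0.00906). Neither was called by edgeR (adjusted p = 0.0625 and 0.0645), and with single libraries left out their adjusted p reached 0.186 and 0.239. Of the 20, 17 had a log2 fold change above 0, with a median of 0.12 against 0.00 over all tested genes. The share called over all tested genes was 4.94%. Whether the speckle proteins changed together was not tested. Of 19 factors of nuclear RNA decay and 3 prime processing, 0 were called. They include the exosome subunits EXOSC10 and DIS3 and the RNA-modifying enzyme METTL16.

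Genes of classes whose RNAs mostly lack a poly(A) tail were compared as a list of 28. The list holds histone genes, small nuclear and nucleolar RNAs, and others such as the 7SL RNA gene RN7SL2 of the signal recognition particle. Of the 28, 16 were tested, 9 were called higher and 0 lower, and 9 were at 0 in every library. Those called with the smallest adjusted p were H2BC5, H1-2, H2BC12 and H2AC6, which encode histones, RNU4-1, a spliceosomal RNA, and SNORD3A, a nucleolar RNA. H2BC5, H1-2 and H2BC12 kept the call by edgeR (adjusted p = 0.0129, 0.0378 and 0.0360) and with any single library left out, and the other 6 lost it under both, reaching an adjusted p of 0.183 to 0.639 with a library left out. The 28 counts summed to 3393, 4199 and 4354 in empty vector replicates 1, 2 and 3 and to 8220, 5472 and 23369 in HMGB2OE replicates 1, 2 and 3. HMGB2OE replicate 3 held the most, as it did of multimapped reads. RN7SL2, which was not called (adjusted p = 0.187), made up much of these sums, at 1617, 2238 and 2556 with the empty vector and 4881, 2607 and 16939 with HMGB2OE. MALAT1 and NEAT1 did not order the libraries in this way, MALAT1 being highest in empty vector replicate 3 and NEAT1 in empty vector replicate 2. Whether the RNA counted for the 28 genes, histone genes included, carried a tail was not tested. The part of these RNAs in the counts of the 9 RNAs was not tested either.

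**Figure D2:**
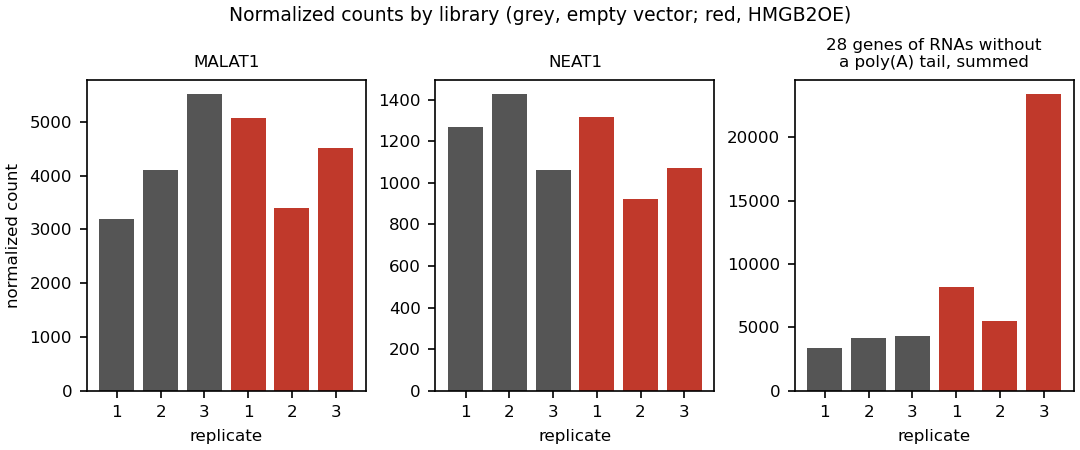
Normalized counts in each library of MALAT1, of NEAT1 and, summed, of 28 genes of classes whose RNAs mostly lack a poly(A) tail. The empty vector is in grey and HMGB2OE in red. The sum, 16939 of it from RN7SL2, reaches 23369 in HMGB2OE replicate 3 and lies between 3393 and 4354 with the empty vector, while MALAT1 is highest in empty vector replicate 3.

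Among the RNAs named for melanoma, SAMMSON (ENSG00000240405; chromosome 3, 69999550 to 70518064, plus strand) had normalized counts of 120, 146 and 114 with the empty vector. With HMGB2OE they were 132, 103 and 114. The groups overlapped, and the log2 fold change was -0.13 (SE 0.22, 95% interval -0.55 to 0.30, DESeq2 adjusted p = 0.890). MITF, 31.2 kb away and the nearest protein-coding gene tested, had 1442 ± 54.5 and 1627 ± 129 (0.17, SE 0.11, adjusted p = 0.533).

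BANCR (ENSG00000278910; chromosome 9, 69296678 to 69311111, minus strand) had 19.2, 39.9 and 38.6 normalized counts with the empty vector and 68.1, 54.2 and 51.8 with HMGB2OE. Every HMGB2OE library was above every empty vector library, and empty vector replicate 1 was the lowest of all with 19 reads. The log2 fold change was 0.83 (SE 0.36), a ratio of 1.78 with a 95% interval of 1.09 to 2.91. It was not called (unadjusted p = 0.0213, DESeq2 adjusted p = 0.214), and without empty vector replicate 1 the log2 fold change was 0.56 (adjusted p = 0.918).

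LINC00518 (ENSG00000183674; chromosome 6, 10429255 to 10435015, minus strand), whose RNA is measured with PRAME in tests of pigmented lesions, was near the floor with 3 to 11 reads per library. Its normalized counts were 6.06, 2.66 and 11.8 with the empty vector and 4.54, 7.88 and 9.0 with HMGB2OE. At this depth no difference was detectable, the interval of the ratio running from 0.343 to 3.22 (log2 fold change 0.07, SE 0.82, DESeq2 adjusted p = 0.990). In the sum of the stranded columns, the measure for loci that share reads with a gene on the other strand, its values were 7.07, 3.54 and 11.9 with the empty vector and 6.35, 13.8 and 12.4 with HMGB2OE. The groups again overlapped, with a log2 fold change of 0.54 (SE 0.73, 95% interval -0.88 to 1.97, adjusted p = 0.850).

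Of 16 other long non-coding RNAs reported in melanoma, 13 had an ID, 9 were tested, 1 was called higher and 0 lower. The one called was MIR31HG, host of miR-31, at 127 ± 36.1 with the empty vector and 218 ± 38.6 with HMGB2OE (log2 fold change 0.78, SE 0.24, DESeq2 adjusted p = 0.0328). Its either-strand column kept 44.9% of its reads, and the sum of the stranded columns gave 0.87 (SE 0.20, adjusted p = 0.00123), while in the either-strand column it was not called by edgeR (adjusted p = 0.111) and reached an adjusted p of 0.376 with a library left out. Of 15 proteins and regulators reported to work with the 9 RNAs, 14 were tested, 0 were called higher and 1 lower. That one was EZH2, the methyltransferase of Polycomb complex 2, which several long non-coding RNAs are reported to bind, at 4993 ± 197 and 4095 ± 171 (-0.29, SE 0.09, adjusted p = 0.0490), and it was not called by edgeR (adjusted p = 0.117), in the stranded sum (0.0523) or with some single libraries left out (up to 0.518). C1QBP, the mitochondrial partner of SAMMSON, was at 35088 ± 5909 and 35607 ± 3542 (0.02, SE 0.14), and the partner XRN2, a nuclear exonuclease, differed by -0.04 (SE 0.11).

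PVT1 (ENSG00000249859; chromosome 8, 127794526 to 128187101, plus strand, 190 annotated transcripts) is a host of several microRNAs and is gained with MYC in many tumours. It had 148.5, 124.9 and 109.5 normalized counts with the empty vector and 90.8, 82.7 and 58.5 with HMGB2OE. The lowest empty vector library lay above the highest HMGB2OE library. The ratio was 0.609 (95% interval 0.432 to 0.858; log2 fold change -0.72, SE 0.25), with an unadjusted p of 0.00454 and a DESeq2 adjusted p of 0.0777, so it was not called. PVT1 is an overlapping locus, defined here as a gene whose either-strand column kept under 90% of the sum of its stranded columns: it kept 88.5%. In that sum its values were 163, 148 and 124 with the empty vector and 104, 86.5 and 68.8 with HMGB2OE, and it was called lower (-0.74, SE 0.24, adjusted p = 0.0415). It was the only one of the 9 called there, where 4.79% of 21265 tested genes were called. The sum adds 81 reads to PVT1, which without strand cannot be told from reads of a gene on the opposite strand. There ENSG00000278275 had 0 reads in the either-strand column and 24 in the stranded sum, and RNU4-25P 1 and 5. These cover only part of the 81 reads, and the source of the rest was not identified. The call depended on the column, the tool and single libraries. By edgeR the adjusted p was 0.117 in the either-strand column and 0.0920 in the stranded sum. With a library left out it was 0.0266 without empty vector replicate 3 and up to 0.657, without empty vector replicate 1, in the either-strand column. In the stranded sum it was 0.0126 without empty vector replicate 3 and 0.440, 0.248, 0.0743, 0.234 and 0.386 without empty vector replicates 1 and 2 and HMGB2OE replicates 1, 2 and 3, so that 5 of the 6 removals ended the call. Over 24 other settings the log2 fold change stayed between -0.90 and -0.56 and 7 called it. MYC, 51.6 kb away, had 1363 ± 223 and 1213 ± 95.7 (-0.17, SE 0.15, adjusted p = 0.716).

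**Figure D3:**
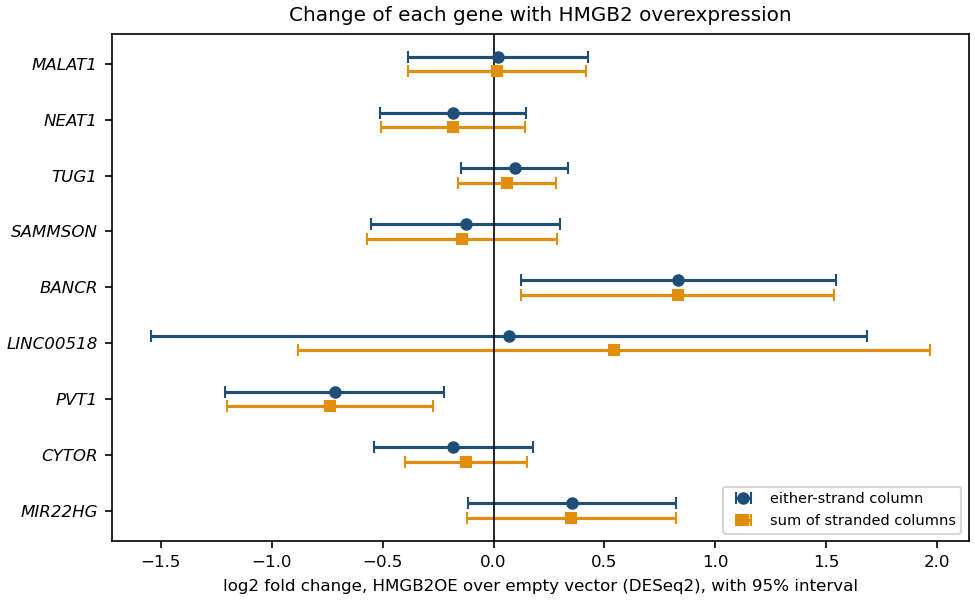
Log2 fold change of each gene, HMGB2OE over empty vector, by DESeq2 with its 95% interval, in the either-strand column (circles) and in the sum of the stranded columns (squares). The intervals of PVT1 (-1.21 to -0.22, circles) and BANCR (0.12 to 1.54) lie to one side of 0, and those of the other 7 genes cross it.

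CYTOR (ENSG00000222041; chromosome 2, 87454781 to 87636740, plus strand), an RNA raised in many carcinomas, kept 11.8% of its reads in the either-strand column. There its normalized counts were 238, 252.5 and 334 with the empty vector and 241, 257 and 228.5 with HMGB2OE. In the sum of the stranded columns they were 2239, 1962 and 2669 with the empty vector and 2021, 1987 and 2286 with HMGB2OE. The groups overlapped in both, with log2 fold changes of -0.18 (SE 0.18, DESeq2 adjusted p = 0.767) and -0.13 (SE 0.14, adjusted p = 0.804). The 11618 reads set aside lay largely where LINC01943 is annotated on the opposite strand, over 405 bases or 2.28% of the exon bases of CYTOR. LINC01943 had 13 reads in the either-strand column and 11687 in the stranded sum, and without strand the reads of the pair cannot be told apart. Of the 50-base words of CYTOR, 54.0% also occur in its near-copy MIR4435-2HG, which had 1991 ± 305 and 1945 ± 281 (-0.03, SE 0.16). Multimapped reads are tallied apart from the genes, so reads that fit both equally count for neither.

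TUG1 (ENSG00000253352; chromosome 22, 30969245 to 30979395, plus strand), first described in the developing retina, kept 60.4%. Its normalized counts were 1201, 1470 and 1218 with the empty vector and 1380, 1428 and 1348 with HMGB2OE. The HMGB2OE libraries lay within the range of the empty vector libraries. The log2 fold change was 0.10 (SE 0.12, 95% interval -0.15 to 0.34, DESeq2 adjusted p = 0.838), and 0.06 (SE 0.11, adjusted p = 0.901) in the stranded sum. The 5347 reads set aside lay largely where ENSG00000269987 and ENSG00000269972 are annotated on the opposite strand, with 3327 and 1973 reads in the stranded sum and 0 in the either-strand column. LINC00518, opposite MIR5689HG, kept 75.9%, and the other 5 genes kept 99.5% to 100%. MALAT1 kept 100% of its reads, but its antisense RNA TALAM1 had no ID in the tables, and reads from that RNA would count as MALAT1 here.

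**Figure D4:**
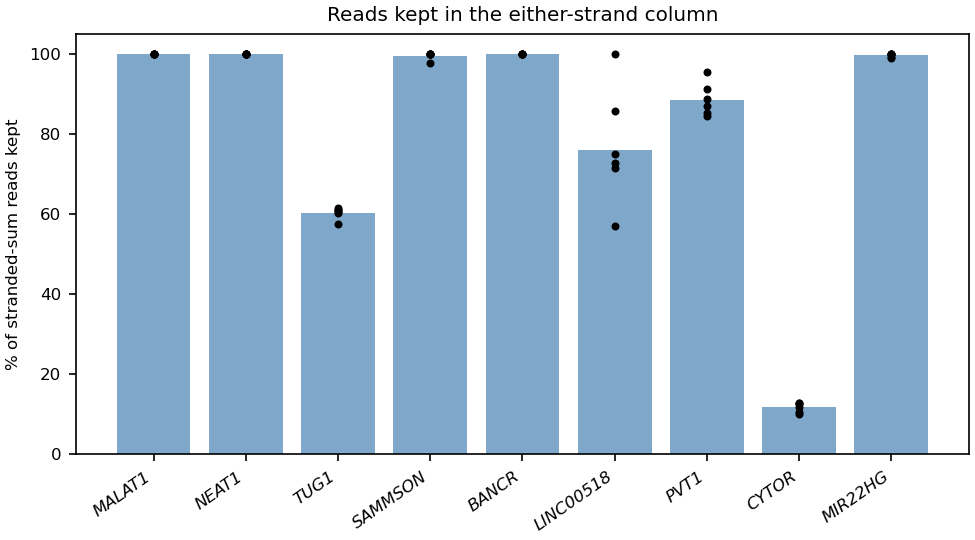
Share of each gene's reads in the sum of the stranded columns that was kept in the either-strand column, over all libraries (bars) and in each library (points). CYTOR kept 11.8%, TUG1 60.4%, LINC00518 75.9% and PVT1 88.5%, and the rest kept 99.5% to 100%.

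MIR22HG (ENSG00000186594; chromosome 17, 1711447 to 1717174, minus strand) is the host gene of miR-22. Its normalized counts were 84.9, 87.7 and 64.4 with the empty vector and 106, 91.6 and 106 with HMGB2OE. The groups did not overlap, by a margin of 87.7 to 91.6, and the log2 fold change was 0.35 (SE 0.24, 95% interval -0.12 to 0.82, DESeq2 adjusted p = 0.568). The mature microRNAs it gives rise to are shown because they are its known product. They are from RefSeq (GRCh38.p14), minus strand, with the seed, bases 2 to 8, in capitals.
hsa-miR-22-3p, chr17:1713914-1713935: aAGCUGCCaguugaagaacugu
hsa-miR-22-5p, chr17:1713952-1713973: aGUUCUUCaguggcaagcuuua
The ID of the microRNA itself had 0 reads in these libraries, which do not capture mature microRNAs, so MIR22HG counts stand for the host transcript alone.

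Levels between the genes were compared per length, as TPM, reads per base of annotated exon scaled to the same total in every library, with the union of all annotated exons as length. MALAT1 was highest, at 29.6 ± 6.74 TPM with the empty vector and 29.5 ± 5.17 with HMGB2OE. TUG1 followed at 9.29 ± 1.25 and 9.73 ± 0.711, and then NEAT1 at 4.01 ± 0.713 and 3.44 ± 0.585. BANCR, at 2.2 ± 0.750 and 3.87 ± 0.623, and MIR22HG, at 1.86 ± 0.368 and 2.32 ± 0.120, lay close below. CYTOR had 1.12 ± 0.156 and 0.972 ± 0.10, SAMMSON 0.588 ± 0.0944 and 0.527 ± 0.0607, PVT1 0.366 ± 0.0707 and 0.218 ± 0.053, and LINC00518 0.240 ± 0.153 and 0.249 ± 0.0788. Over the 6 libraries the ranges of neighbours in this order overlapped for NEAT1 and BANCR, for BANCR and MIR22HG, and for PVT1 and LINC00518. The order depended on the length: with the canonical transcript CYTOR (1020 bases in place of 17782) ranked 2 at 10.1 ± 1.34 TPM and SAMMSON (1199 in place of 15702) 4 at 4.0 ± 0.691, both with the empty vector. In the sum of the stranded columns CYTOR ranked 3 at 6.97 ± 0.835. For NEAT1 both lengths, 22767 and 22743 bases, were those of the long isoform. Reads of its short isoform would be spread over that length and give a TPM too low for it. The share of each isoform was not tested, so the place of NEAT1 in this order is uncertain.

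**Figure D5:**
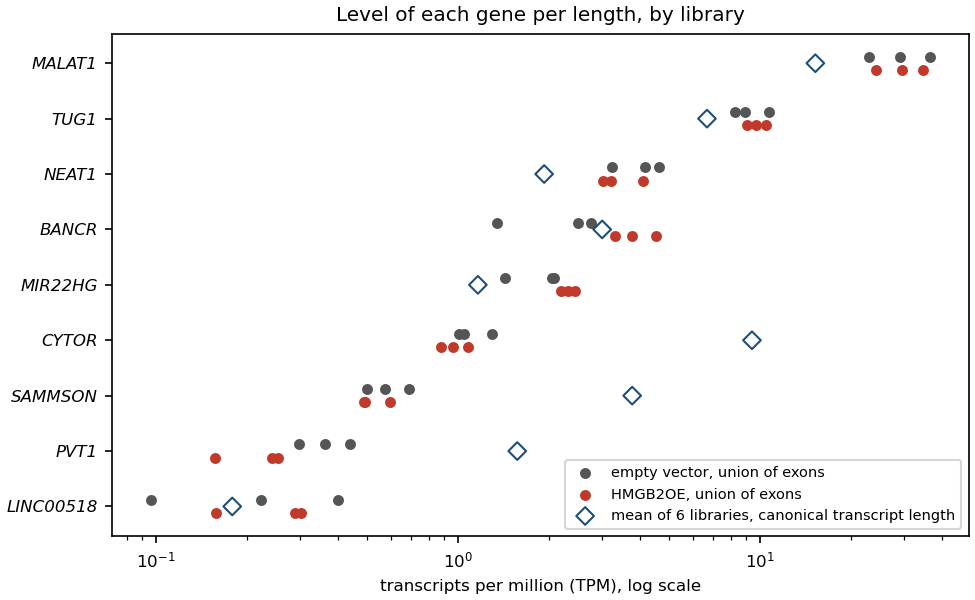
Level of each gene in TPM on a log axis, by library, over the union of annotated exons (filled points), and the mean of 6 libraries over the length of the canonical transcript (diamonds). MALAT1 lies between 23.0 and 36.5 TPM in all libraries, and CYTOR and SAMMSON move furthest with the choice of length.

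The letters AATAAA, the usual signal for cleavage and polyadenylation, were searched on the transcript strand in the last 60 bases of each canonical transcript. They were found in 4 of the 9, BANCR, CYTOR, LINC00518 and TUG1, or 44.4%, against 37.8% of 14262 lncRNA transcripts, 33.3% of all and 64.6% of protein-coding ones. The end of CYTOR is shown in contrast to those of MALAT1 and NEAT1, on hg38, 5′ to 3′, with the letters in capitals.
CYTOR, chr2:87636681-87636740, plus strand: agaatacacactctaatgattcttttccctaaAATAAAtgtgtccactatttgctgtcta
In CYTOR the letters end 22 bases before the annotated end. No match says only that these letters are not in that window.

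Around the 9 loci, 65 genes within 250 kb were tested, MALAT1 and NEAT1 being among them as neighbours of each other. Of the 65, 1 was called higher and 2 lower, 3 of 65 being close to the 4.94% called over all tested genes. RTN4RL1, a receptor of the Nogo family 217.5 kb from MIR22HG, rose from 9.39 ± 5.41 to 36.03 ± 5.50 (log2 fold change 1.96, SE 0.52, DESeq2 adjusted p = 0.00567). CDC42EP2, an effector of the GTPase CDC42 that lies 100.4 kb from NEAT1 and 175.2 kb from MALAT1, fell from 2073 ± 176 to 1312 ± 107 (-0.66, SE 0.12, adjusted p = 6.57e-06). OSBP2, an oxysterol-binding protein 61.4 kb from TUG1, fell from 490 ± 109 to 244 ± 28.6 (-1.0, SE 0.20, adjusted p = 4.68e-05). Of the nearest protein-coding genes tested, FRMD8 for NEAT1, MITF for SAMMSON, ENTREP1 for BANCR, MYC for PVT1, RGPD2 for CYTOR, TFAP2A for LINC00518, MORC2 for TUG1 and WDR81 for MIR22HG, 0 of 8 were called, and their log2 fold changes lay between -0.17 and 0.17.

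The genes whose pattern over the 6 libraries was most like each RNA were taken by Pearson correlation of log2(normalized count + 1), among 13293 or 13294 genes averaging at least 50 normalized counts. The values are a description over 6 libraries, with no test. For MALAT1 they were ZNF12 and OTUD6B (both r = 0.996), for NEAT1 GCAWKR (0.978) and NBPF8 (0.966), and for SAMMSON ENSG00000267317 (0.978) and again NBPF8 (0.972). BANCR was most like MTF2 (0.994) and INHA (0.992), and PVT1 most like TPBG (0.994) and ENSG00000279059 (0.993). For CYTOR they were C20orf96 (0.996) and ACP6 (0.982), for LINC00518, with its few reads, DDX28 and DYNC2I2 (both 0.998), for TUG1 ENSG00000230834 (0.993) and PCDHB13 (0.982), and for MIR22HG CDR2 (0.985) and ZNF441 (0.974). None of these genes was called, the smallest DESeq2 adjusted p among them being 0.164, of TPBG.

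Among all genes typed as lncRNA, 2519 were tested and 45 were called, or 1.79%, against 4.94% of all tested genes. Of these calls 14 were higher and 31 lower, against 432 higher and 498 lower over all tested genes. The part of count level in these differences was not tested. The median log2 fold change of the tested lncRNA genes was -0.02. Of 18 other nuclear or broadly expressed long non-coding RNAs, 17 had an ID and 15 were tested, of which 0 were called. The closest was DANCR, at 1964 ± 124 and 2535 ± 298 (0.37, SE 0.12, DESeq2 adjusted p = 0.0601). NORAD, a cytoplasmic RNA that binds PUMILIO proteins, was the most abundant of them by reads, at 18989 ± 905 and 19650 ± 524 normalized counts (0.05, SE 0.09).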

How the data were processed

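RNA of 6 A375 libraries was enriched by poly(A) selection and sequenced. The authors trimmed reads with Trimmomatic and aligned them to hg38, and the submitters' processing notes name bcl2fastq 2.20, FastQC, Trimmomatic and STAR; the STAR version and annotation release are not given in the sources used here. Deposited values are raw counts of reads in STAR's 4-column layout. Column 2 (either strand) was the main measure. Columns 3 and 4 held near-equal shares (50.1% to 50.2% in column 3), as unstranded libraries give, and their sum was the measure for overlapping loci. Summary lines were left out, and 57532 of 58302 IDs matched GENCODE 44.

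The whole table was fitted in R 4.3.3 with DESeq2 1.42.0 (Wald test, defaults, group alone), after the study's methods, with Benjamini-Hochberg adjustment and a call at an adjusted p under 0.05. An adjusted p was given to 18836 of the 32925 genes that had any read. Log2 fold changes are unshrunken. edgeR 4.0.16 (quasi-likelihood, TMM) was the alternative, beside other scalings, filters, columns and left-out libraries. The fits were tested on simulated data. TPM was computed from counts and GENCODE exon lengths.

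The members, gene lists and alternatives were chosen with earlier results of these data known. Named genes were the members, HMGB2, up to 6 called genes per list and among neighbours, the nearest coding genes and the 2 most alike genes per member. The markers, partners and other genes named without a call were chosen after their values were seen. Assigned reads per library were 45925053 to 56755212. A shared replicate number was not taken as a pairing. A neighbouring gene and a transcript end are not reported here.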

Additional observations from a re-analysis of the deposited data

How the results depend on the processing

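Genes called over the whole table numbered 930, and 470 with edgeR, 1826 with a replicate block, 2733 with a term for the third replicates, 2621 with replicates 1 and 2 alone and 363 to 2854 with single libraries left out, the lowest without empty vector replicate 1 and the highest without empty vector replicate 3. Of the 9 RNAs, 0 were called, and 1, PVT1, with the stranded sum (log2 fold change -0.74), a filter of 10 counts in 3 samples (-0.71), a term for the third replicates (-0.73), without empty vector replicate 3 (-0.81), and, chosen after seeing the data, with the stranded sum and a replicate block (-0.75), with it and a term for the third replicates (-0.75) and with it and without empty vector replicate 3 (-0.83). With libraries left out in turn the number called was 0 to 1 and PVT1 lay between -0.85 and -0.56, or -0.90 and -0.60 in the stranded sum. The neighbours called numbered 3, and 6 with the replicate block, 10 with the third-replicate term, 11 with replicates 1 and 2 alone and 2 to 9 with libraries left out. Over all gene lists but those of the 9 RNAs and of the markers, the genes called numbered 13. Of these, 9 were in the list of classes that mostly lack a poly(A) tail. The number was 3 with edgeR, 8 without the independent filter, 22 with the block and 33 with the third-replicate term. It was 28 with replicates 1 and 2 alone and 3 to 28 with libraries left out. The cause was not tested.

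The sign turned for values near 0: MALAT1 ran from -0.15 to 0.25 with libraries left out (in the stranded sum -0.16 without empty vector replicate 1, -0.014 without empty vector replicate 2, -0.11 and -0.015 without HMGB2OE replicates 1 and 3), LINC00518 from -0.33 to 0.72, and CYTOR reached 0.020 with replicates 1 and 2 alone. Empty vector TPM moved with the canonical transcript length to 15.3 for MALAT1, 2.08 for NEAT1, 4.0 for SAMMSON, 1.98 for PVT1, 10.1 for CYTOR, 6.55 for TUG1 and 1.04 for MIR22HG, and with the stranded sum to 22.2 for MALAT1, 3.0 for NEAT1, 0.444 for SAMMSON, 6.97 for CYTOR, 11.7 for TUG1 and 1.39 for MIR22HG. Overlapping loci numbered 4, and 1, CYTOR, at a limit of 50%.

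Replicate numbers were not shown to pair the libraries throughout. Same-numbered libraries correlated in their deviations at 0.0906, 0.142 and 0.349 for replicates 1, 2 and 3 over 16692 genes. Empty vector replicate 1 correlated best with HMGB2OE replicate 2 (0.212). The value for replicate 3 was the highest of all pairs. Empty vector replicate 3 correlated at -0.137 and -0.253 with HMGB2OE replicates 1 and 2. HMGB2OE replicate 3 correlated at -0.272 and -0.217 with empty vector replicates 1 and 2. Deviations were taken from the mean of each group, so these negative values follow in part from the value for replicate 3. They are not separate evidence. By the value of 0.349 the libraries of replicate 3 shared part of their deviation, and the cause was not tested. With the replicate block as with no block, 0 of the 9 RNAs were called in the either-strand column. PVT1 was called there with a term for replicate 3 (log2 fold change -0.73, DESeq2 adjusted p = 0.0195). Depth limited LINC00518 most, at 3 to 11 reads per library.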
